A study of Mus musculus with 14 samples.

Results

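The genes described here are 10 genes of hepatic antioxidant defence, among the 17552 genes of a pooled count table of mouse liver RNA. They were picked out of the table by gene symbol, with earlier results of these data known, and comprise the superoxide dismutases Sod1 and Sod2, catalase (Cat), the glutathione peroxidases Gpx1 and Gpx4, the peroxiredoxins Prdx1 and Prdx6, and the paraoxonases Pon1, Pon2 and Pon3. All 10 were present and all 10 held at least 100 counts in the groups together, the minimum applied to genes compared below, which 13291 genes reached.

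The livers came from male Apoe-deficient mice labelled as strain C57BL/6 (C57BL/6J in the study's methods) and 8 weeks of age, and the question was what erythrodiol, a triterpene alcohol of olive oil, does to hepatic gene expression. Both groups carried the Apoe deficiency and received a Western diet, labelled as 8 weeks long although the study's methods describe a longer feeding. After such a feeding 8 weeks cannot be the age at collection. The labelled age is read here as that at the start of the diet. The control group (7 libraries) received the diet alone and the erythrodiol group (7 libraries) the same diet with 10 mg/kg of erythrodiol. Livers were washed with PBS, and each library was made from poly(A) RNA of a pool of animals, so that single mice cannot be compared. No wild-type mice and no mice on a standard diet were analysed here.

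Antioxidant enzymes work as relays. Superoxide dismutases turn superoxide into hydrogen peroxide, and catalase, glutathione peroxidases and peroxiredoxins remove that peroxide or the lipid peroxides that arise from it. Peroxidases draw reducing power from glutathione or thioredoxin and in the end from NADPH. Paraoxonases are lactonases. PON1 is made in the liver and carried in plasma on high-density lipoprotein (HDL), where it is known for limiting lipid peroxidation in lipoproteins.

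Gene counts were sums over the 7 libraries of a group, which totalled 122889032 in the control and 124686047 in the erythrodiol group. Each gene therefore had 1 value per group, without replicates, and no statement below carries a test of the diet. Ratios are erythrodiol over control after division by the group totals, and the 95% intervals cover counting error of the reads only and leave out the spread between animals and pools. Single libraries gave 9.12% to 17.3% of the control sum and 13.9% to 14.6% of the erythrodiol sum. In 1 control library 76.66% of the reads mapped to the genome against 91.98% to 94.64% in the others, and it could not be left out because the sums cannot be divided. The median log2 ratio of all genes compared was 0.16, and it rose with gene length from -0.18 in the 10% of genes that are shortest to 0.33 in the 10% that are longest. For that reason each ratio is also given as its difference from the median of genes of like length, which means within 10% of its length. Apoe itself held 9403 counts in the control and 8293 in the erythrodiol sum, and a count over a whole gene does not tell whether the disrupted part was read.

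The antioxidant genes did not move as a block. A gene was counted as different where it was at least 25% higher or at least 20% lower with erythrodiol, the same distance of 0.32 on the log2 scale. Catalase and Pon2 were past that limit upwards, whereas Gpx4, Prdx1 and Pon1 were past it downwards, and Sod1, Sod2, Gpx1, Prdx6 and Pon3 lay inside it. Thus 2 of 10 genes were past the limit higher, beside 24.4% of all genes compared, and 3 of 10 lower, beside 8.89% of all genes. None of the 10 reached a 2-fold difference, a limit that 0.218% of all genes passed upwards and 0.549% downwards. The log2 ratio was above 0 for 7 of the 10 genes, beside 71.2% of all genes. Relative to genes of like length, 1 gene was past the limit higher (Cat) and the same 3 were past it lower, against 6.2% and 13.3% of all genes, and 6 of 10 lay above their length class, against 50.3% of all genes. With the median of all genes set to 0, no member was past the limit higher and 3 were past it lower, beside 6.31% and 16.6% of all genes. The median of the 10 log2 ratios was 0.08, and that of their differences from genes of like length was 0.10. Together the 10 genes took 0.742% of all counts in the control and 0.789% in the erythrodiol sum.

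**Figure D1:**
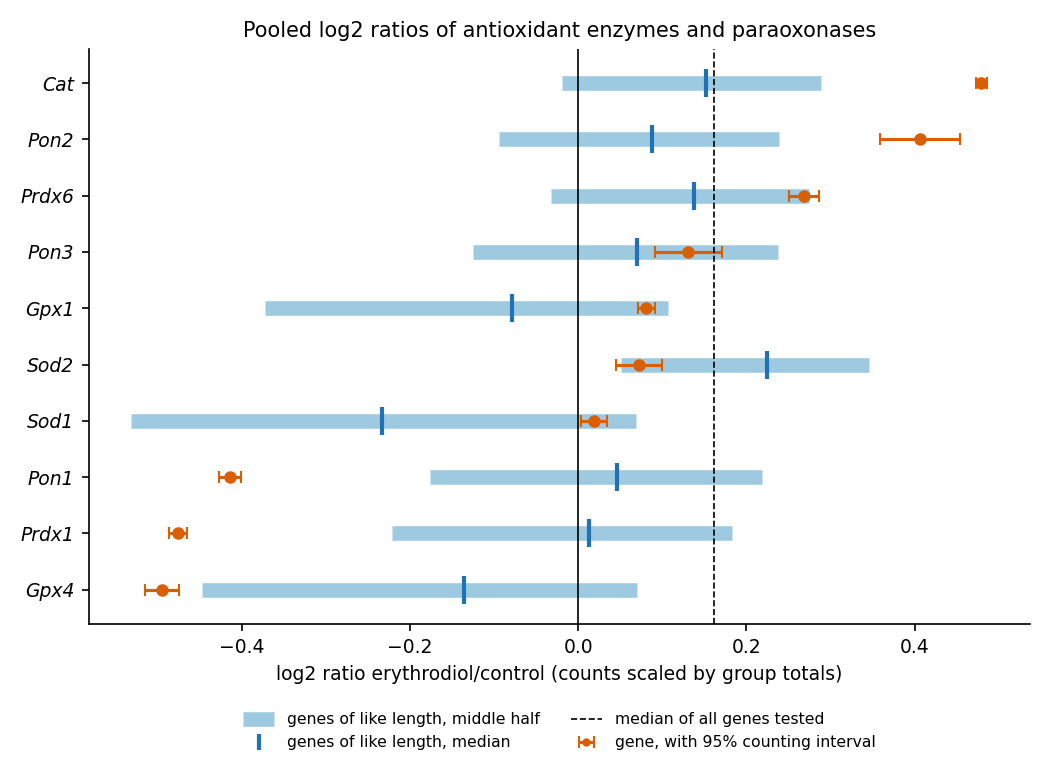
Pooled log2 ratio of erythrodiol over control for each of the 10 genes (orange points, bars: 95% counting interval), beside the median (blue mark) and middle 50 percent (pale band) of the genes of like length. Cat and Pon2 lie to the right of their bands, and Pon1, Prdx1 and Gpx4 to the left of theirs; the dashed line is the median of all genes compared, 0.16.

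Levels, expressed as RPKM (expected counts per kilobase of gene length and 1000000 counts), spanned 41.8-fold between the highest and the lowest of the 10 genes in the control and 36.1-fold in the erythrodiol sum. In the control the order was Gpx1, Cat, Prdx1, Sod1, Pon1, Gpx4, Prdx6, Pon3, Sod2 and Pon2. In the erythrodiol sum Cat stood above Gpx1 and Sod1 above Prdx1, and the rest of the order was as in the control. Of neighbours in the control order, the counting intervals of Pon3 (44.1 to 45.9) and Sod2 (43.2 to 44.4) overlapped. With erythrodiol those of Pon3 (48.3 to 50.2) and Sod2 (45.4 to 46.6) did not.

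**Figure D2:**
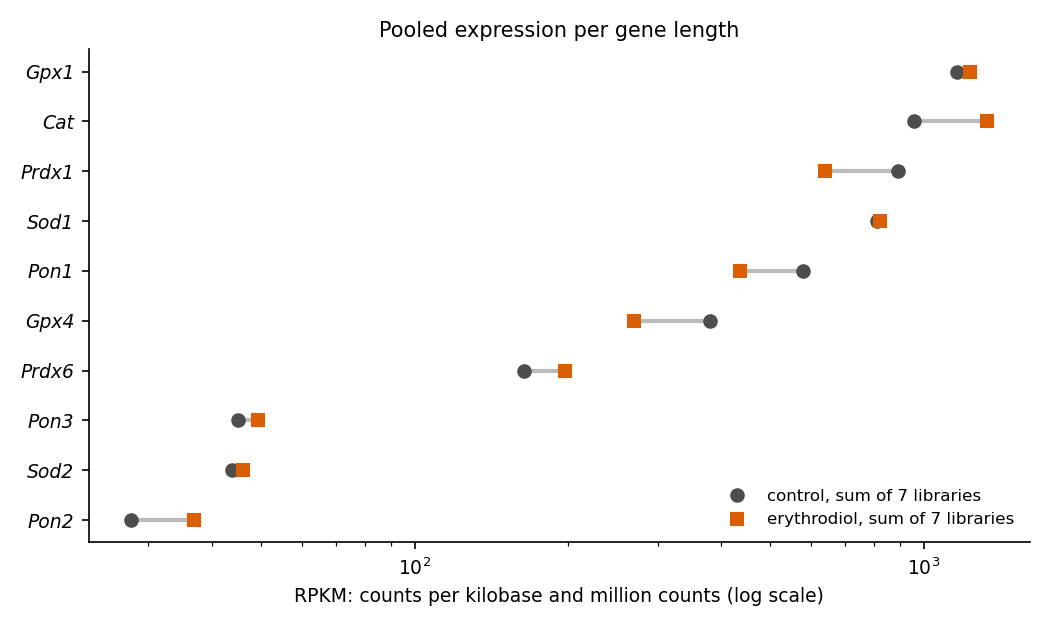
Level of each gene in the control (grey circles) and erythrodiol (orange squares) sums, in RPKM on a log axis. The highest levels belong to Gpx1 and Cat and the lowest to Pon2, at 27.8 and 36.8, and the lines between the symbols are longest for Cat, Prdx1, Gpx4, Pon1 and Pon2.

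Superoxide dismutases, which feed the relay with hydrogen peroxide, had close levels in the groups by the totals. Sod1 (gene 20655, chr16:90220762-90226333 of GRCm38.p6, 5 exons), the cytosolic copper and zinc enzyme, held 65864 counts in the control and 67679 in the erythrodiol sum. These were levels of 811 and 821 RPKM, a ratio of 1.01-fold with a log2 ratio of 0.018 (95% counting interval 0.0028 to 0.034). The groups were almost level on this scale, but Sod1 is short, at 661 bases, and the 157 genes of like length had a median log2 ratio of -0.23, so that Sod1 lay 0.25 above them and above 72.0% of them. Against the 20 genes that were like it in both length and count, the difference was 0.43, which is past the limit.

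Sod2 (gene 20656, chr17:13007839-13018119, 5 exons), the manganese enzyme of mitochondria, held 20565 and 21936 counts, or 43.8 and 46.0 RPKM. Its log2 ratio was 0.072 (0.045 to 0.0997), while the 1586 genes of its length class had a median of 0.22, so that it lay below them by -0.15. It was the only gene of the 10 with counts that were not whole, which is how the counting program writes reads it divides between genes. Thus the dismutases stood on opposite sides of genes of their own length although their raw ratios differed little. Sod1 made up 94.9% of the Sod1 and Sod2 signal per length in the control and 94.7% with erythrodiol.

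Catalase had the highest ratio of the 10 genes. Cat (gene 12359, chr2:103453904-103485153, minus strand, 13 exons), the peroxisomal enzyme that splits hydrogen peroxide without a reducing partner, held 299293 counts in the control and 423296 in the erythrodiol sum. Its level was 955 and 1331 RPKM, a ratio of 1.39-fold and a log2 ratio of 0.48 (0.47 to 0.49). The 1571 genes of like length had a median of 0.15, and Cat was 0.33 above it and higher than 94.5% of them. Few genes are both as long and as abundant: against the 12 genes like it in length and count the difference was 0.19, which is inside the limit. In addition, Cat took 3395 of every 1000000 counts with erythrodiol and 2435 in the control.

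Gpx1 (gene 14775, chr9:108339080-108340342, 2 exons), the abundant cytosolic and mitochondrial glutathione peroxidase, held 152348 and 163517 counts. Its level was 1163 and 1230 RPKM, the highest of the 10 in the control and next to Cat with erythrodiol. The log2 ratio was 0.08 (0.07 to 0.09), which was 0.16 above the median of the 482 genes of like length. Expressed per length, catalase stood at 0.821 times Gpx1 in the control and at 1.08 times Gpx1 with erythrodiol. Scaling of the groups does not enter that comparison, but gene length does, since Cat is the longer gene. Relative to genes of like length Cat was 0.33 and Gpx1 0.16 above 0, a smaller gap than between their ratios.

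Gpx4 went the other way. Gpx4 (gene 625249, chr10:80047166-80056439, 7 exons), the peroxidase that reduces phospholipid hydroperoxides inside membranes and restrains ferroptosis, held 45514 counts in the control and 32778 with erythrodiol. Its level was 379.9 and 269.6 RPKM, a ratio of 0.71-fold and a log2 ratio of -0.49 (-0.52 to -0.47). The 420 genes of like length had a median of -0.14, and Gpx4 was 0.36 log2 units below it, with 21.0% of those genes lower still. Against the 62 genes like it in length and count the difference was -0.15, inside the limit. Within each sum the ratio of Gpx1 to Gpx4 per length was 3.06 in the control and 4.56 with erythrodiol.

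Both peroxidases are selenoproteins, in which a UGA codon is read as selenocysteine with the help of an element in the 3′ end of the message. The reading frames are shown because this codon is the feature that Gpx1 and Gpx4 share and the other 8 genes lack. In the reference genome the annotated frame of each gene held 1 internal TGA, capitalised in the lines that follow with 12 bases on either side, at codon 47 in Gpx1 (chr9:108339439-108339465) and codon 129 in Gpx4 (chr10:80054725-80054751), both on the plus strand.
Gpx1: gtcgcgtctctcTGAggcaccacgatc
Gpx4: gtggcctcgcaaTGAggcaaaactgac
Despite this shared requirement their log2 ratios lay 0.08 above and 0.49 below 0. Genes that supply selenium and build selenocysteine gave a median log2 ratio of 0.19 over 10 genes, with 2 past the limit higher (Sepsecs and Eefsec) and 0 lower, and 0 past it in either direction relative to genes of like length. Selenop, the plasma selenium carrier and the most abundant of that list, held 690848 and 821213 counts with a log2 ratio of 0.23.

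**Figure D3:**
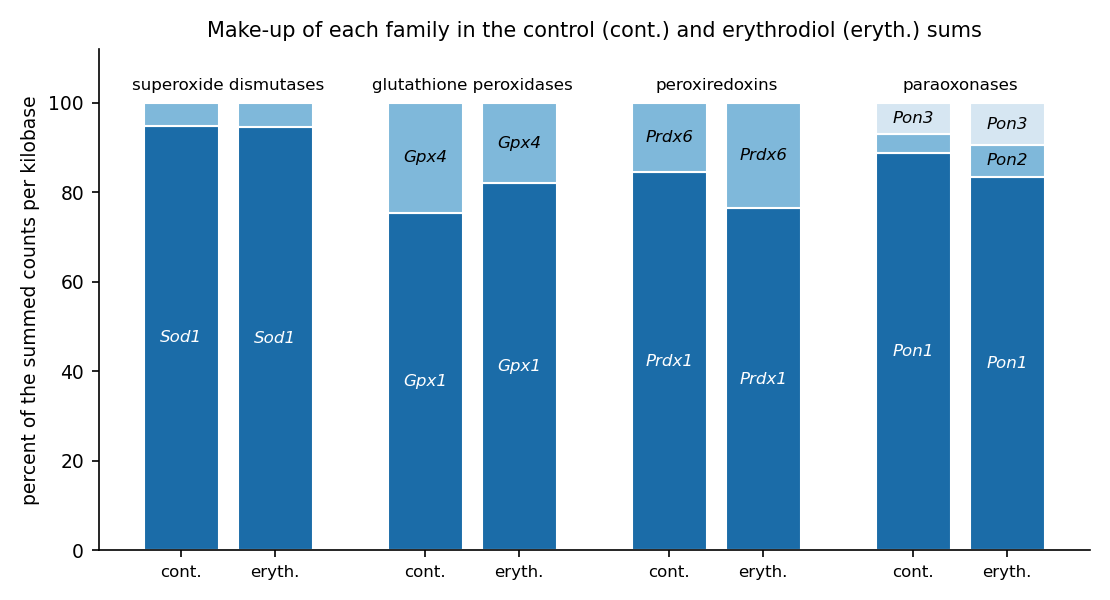
Share of each gene in the summed counts per kilobase of its family, in the control and erythrodiol sums; shares within a sum do not depend on how the groups are scaled. Gpx4, Prdx1 and Pon1 take smaller shares with erythrodiol, and Sod1 stays at 94.9% and 94.7%.

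Peroxiredoxins were split as well. Prdx1 (gene 18477, chr4:116685599-116700000, 6 exons), a cytosolic enzyme that passes the oxidising equivalents of peroxide to thioredoxin, held 155198 counts in the control and 113238 with erythrodiol. Its level was 891 and 641 RPKM, a ratio of 0.719-fold and a log2 ratio of -0.48 (-0.49 to -0.46). It lay 0.49 log2 units below the median of the 866 genes of like length, of which 9.01% were lower, and the difference was -0.44 against the 42 genes like it in length and count.

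Prdx6 (gene 11758, chr1:161240112-161251210, 5 exons), which uses glutathione instead of thioredoxin and also acts on phospholipids, held 47963 and 58621 counts. Its level was 164 and 197 RPKM, a ratio of 1.20-fold and a log2 ratio of 0.27 (0.25 to 0.29), 0.13 above its 1522 genes of like length. The ratio of Prdx1 to Prdx6 per length was thus 5.44 in the control and 3.25 with erythrodiol, and Prdx1 made up 84.5% and 76.4% of their joint signal per length.

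Paraoxonases differed from one another most plainly, although the genes are neighbours. They lie on the minus strand of chr6:5168090-5298345, a stretch of 130256 bases, in the order Pon1, Pon3 and Pon2 along the reference, with gaps of 22268 and 8334 bases between them, and each has 9 exons. Their coding frames span 1065 bases in Pon1 and 1062 bases in both Pon2 and Pon3. Pon1 (gene 18979, chr6:5168090-5193987), the plasma enzyme, held 109008 counts in the control and 83052 with erythrodiol. Its level was 579.8 and 435 RPKM, a ratio of 0.751-fold and a log2 ratio of -0.41 (-0.43 to -0.40). It lay 0.46 log2 units below the median of 986 genes of like length and -0.45 from the 72 genes like it in length and count, and 8.42% of genes of like length were lower.

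Pon2 (gene 330260, chr6:5264620-5298345), a membrane enzyme of many tissues that stays inside the cell, was the least abundant of the 10 genes, with 6325 and 8505 counts. Its level was 27.8 and 36.8 RPKM, a ratio of 1.33-fold and a log2 ratio of 0.41 (0.36 to 0.45), the widest counting interval of the 10. It was 0.32 above the 1289 genes of like length, just short of the limit, and higher than 92.3% of them. Pon3 (gene 269823, chr6:5216256-5256285) lay between Pon1 and Pon2, with 9701 and 10778 counts, levels of 45.0 and 49.2 and a log2 ratio of 0.13 (0.09 to 0.17). Its difference from 1229 genes of like length was 0.06.

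As shares of the counts of the family, Pon1 made up 87.2% (exact binomial 95% interval 87.0% to 87.4%) in the control and 81.2% (80.9% to 81.4%) with erythrodiol. Those of Pon2 were 5.06% and 8.31%, and those of Pon3 were 7.76% and 10.5%. The 3 genes together took 1017 counts in every 1000000 of the control sum and 821 of the erythrodiol sum, which is 0.807-fold. Per length, Pon1 was 12.9 times Pon3 in the control and 8.84 times Pon3 with erythrodiol.

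Sequences before the transcription start are shown for Cat and Pon2, the highest of the 10 relative to genes within 10% of their length, and for Prdx1 and Pon1, the lowest. Under 3 of the other definitions of like length, those of a 5% window, of at least 1000 counts and of matched counts, Sod1 was the highest, at 0.35, 0.33 and 0.43. They are the 250 bases upstream of the start in RefSeq for GRCm38.p6, written 5′ to 3′ on the gene's strand, from chr2:103485154-103485403 (Cat, minus strand), chr6:5298341-5298590 (Pon2, minus strand), chr4:116685349-116685598 (Prdx1, plus strand) and chr6:5193947-5194196 (Pon1, minus strand). Capitals mark matches on either strand to the CCAAT box (CCAAT), the GC box (GGGCGG), the TATA box (TATAAA) and the core of the antioxidant response element (TGACNNNGC).
Cat: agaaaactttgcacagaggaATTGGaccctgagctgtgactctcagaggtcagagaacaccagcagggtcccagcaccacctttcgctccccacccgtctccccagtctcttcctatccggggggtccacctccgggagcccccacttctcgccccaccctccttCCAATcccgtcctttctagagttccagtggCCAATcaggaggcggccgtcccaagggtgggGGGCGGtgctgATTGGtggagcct
Pon2: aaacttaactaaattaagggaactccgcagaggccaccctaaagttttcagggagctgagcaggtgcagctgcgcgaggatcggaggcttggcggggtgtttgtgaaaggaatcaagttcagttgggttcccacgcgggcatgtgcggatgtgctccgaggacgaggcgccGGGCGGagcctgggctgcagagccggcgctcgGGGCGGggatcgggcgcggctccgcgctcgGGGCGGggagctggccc
Prdx1: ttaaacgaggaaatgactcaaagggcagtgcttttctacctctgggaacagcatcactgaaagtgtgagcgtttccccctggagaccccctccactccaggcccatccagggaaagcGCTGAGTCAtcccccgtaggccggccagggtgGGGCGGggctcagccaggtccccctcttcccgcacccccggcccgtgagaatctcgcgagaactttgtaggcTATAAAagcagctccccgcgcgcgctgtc
Pon1: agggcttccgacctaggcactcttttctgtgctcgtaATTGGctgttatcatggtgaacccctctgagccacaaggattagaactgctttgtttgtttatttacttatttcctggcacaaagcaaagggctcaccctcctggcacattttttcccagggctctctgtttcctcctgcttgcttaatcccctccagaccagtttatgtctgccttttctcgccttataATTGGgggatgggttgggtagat
RefSeq promoters were matched for 9 of the 10 genes, with 12 starts among them, and Prdx6 was not matched. The GC box was found at 9 of the 12 starts (7 of those 9 genes), beside 32.7% of 32851 promoter windows of the same length. The CCAAT box was found at 7 of the 12 starts (5 genes), beside 33.8% of windows. Windows of different starts of 1 gene can overlap. Gpx4 held GC boxes 13 to 8 and 107 to 102 bases before its starts, and CCAAT boxes 43 to 39 and 137 to 133, at the same spacing. A box of Gpx4 can therefore be counted at more than 1 start. Cat held 4 CCAAT boxes and 1 GC box, Pon2 held 3 GC boxes, and Pon1 held 2 CCAAT boxes and no GC box. The end of the Pon1 window, with the CCAAT box 23 to 19 bases before the start, lies inside the Pon1 span given above. The antioxidant response element core, to which NRF2 binds with a small MAF partner, was found at 2 of the 12 starts (Prdx1 and Sod1), beside 10.2% of windows. The Prdx1 match, beginning 133 bases before the start on the opposite strand, also contains the AP-1 motif TGACTCA. The TATA box was found at 2 of the 12 starts, in the same 2 genes, beside 12.4% of windows. G and C made up 62% of the Cat window, 65.6% of that of Pon2, 61.6% of that of Prdx1 and 47.6% of that of Pon1, against a median of 52.4% over all windows. Windows of genes that were higher and lower with erythrodiol thus both held GC boxes, and a match to these letters is no evidence of binding.

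**Figure D4:**
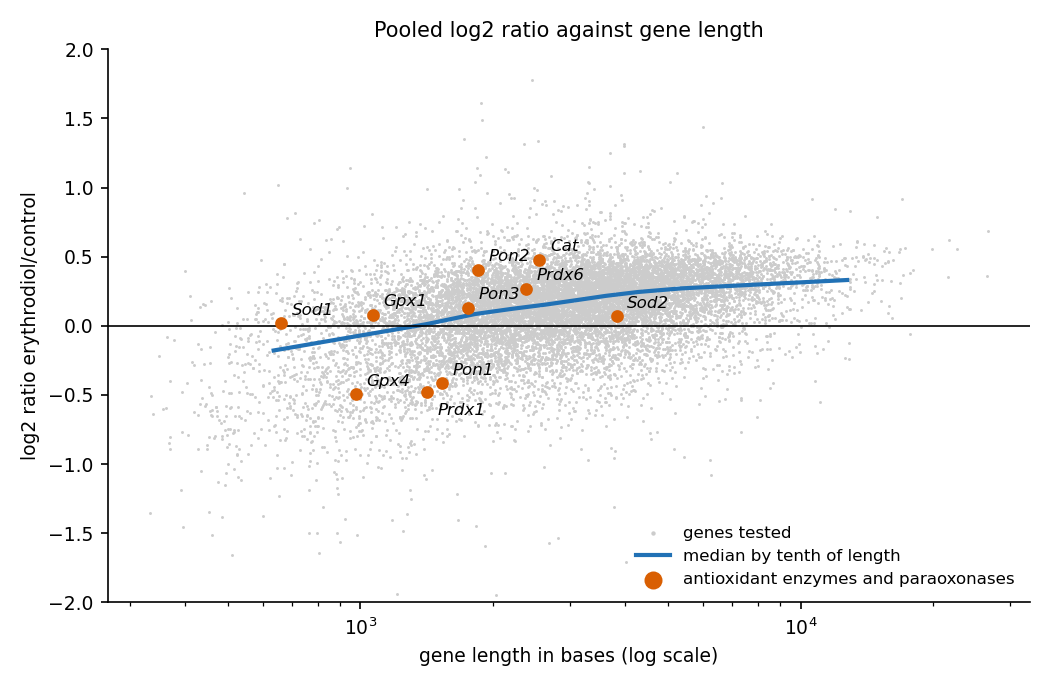
Pooled log2 ratio of erythrodiol over control against gene length in bases (log axis) for the genes compared (grey), with the median of 10 classes of length (blue line) and the 10 genes (orange); 11 genes beyond 2 log2 units are not drawn. Cat and Pon2 lie above the line and Gpx4, Pon1 and Prdx1 below it, while Sod2, the longest of the 10, lies under the line although its ratio is above 0.

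Direction was the same for 6 of the 10 genes under every scaling of the totals and every definition of like length tried. Cat, Pon2 and Prdx6 were above 0 and Gpx4, Prdx1 and Pon1 below 0 in all of them. The sign of Sod1, Sod2, Gpx1 and Pon3 depended on the scale. With the median of all genes set to 0, Sod1 was at -0.14, Sod2 at -0.09, Gpx1 at -0.08 and Pon3 at -0.03. Over all genes compared, 6.59% had a ratio above that of Cat and 12.9% above that of Pon2, while 4.71% lay below Gpx4, 5.15% below Prdx1 and 6.37% below Pon1.

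Genes that work with the 10 enzymes were read from 9 lists, with 93 of 94 listed genes in the table and 89 of them compared. Of these, 15 were past the limit higher and 10 lower by the totals, beside 24.4% and 8.89% of all genes compared. Relative to genes of like length 5 were higher and 11 lower, beside 6.2% and 13.3% of all genes, and the counts of each list that follow are to be read against these shares. Their median log2 ratio was 0.14, and 0.02 relative to genes of like length.

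Among other members of the same enzyme families, 9 genes were compared, of which 0 were past the limit higher and 3 lower, with a median of -0.13. Relative to genes of like length 0 were higher and 2 lower. Prdx4, the peroxiredoxin of the endoplasmic reticulum, held 14327 and 8918 counts, with a log2 ratio of -0.70. Prdx5, found in mitochondria and peroxisomes, held 22602 and 15608 counts, with a log2 ratio of -0.56. Relative to genes of like length Prdx5 stood at -0.27, inside the limit. Gpx8 held 257 and 171 counts, with a log2 ratio of -0.61. Prdx2 and Prdx3 stood at 0.03 and -0.23. Prdx6b, a close copy of Prdx6, held 17 and 16 counts, and how reads were divided between them was not tested.

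Partners of the thioredoxin and glutathione systems were mixed. Of 16 thioredoxin, glutaredoxin and methionine sulfoxide reductase genes, 0 were past the limit higher and 2 lower, with a median of 0.14. Txn1, the thioredoxin that regenerates peroxiredoxins, was lower at -0.47 (27218 and 19962 counts), which lay beside Prdx1. Its reductase Txnrd1 stood at 0.31 and sulfiredoxin (Srxn1), which rescues overoxidised peroxiredoxins, held 7905 and 8001 counts. Msrb1, a selenoprotein that reduces methionine sulfoxide and the most abundant of the list, stood at -0.14. Of 7 genes of glutathione synthesis and turnover, 3 were past the limit in each direction, and 1 higher and 3 lower relative to genes of like length. Those past it include enzymes of glutathione breakdown, namely Chac1 (0.37), Chac2 (-0.33) and Ggct (-0.47). The subunits of glutamate-cysteine ligase, Gclc and Gclm, were both at 0.34. Relative to genes of like length they stood at 0.14 and 0.23, inside the limit, and the 1 gene still higher was Chac1. The cystine transporter Slc7a11 held 120.01 and 91.54 counts, with a log2 ratio of -0.41.

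Genes that supply NADPH to the peroxidases and oxidases that form their substrate are given next. Of 8 genes of NADPH supply, 3 were past the limit higher and 0 lower, with a median of 0.26, and relative to genes of like length 0 were past it in either direction. Malic enzyme (Me1) had the highest log2 ratio of all lists, 0.47, with 26258 and 36789 counts, while Idh1, the most abundant of the list, stood at -0.18. Of 11 oxidases that form hydrogen peroxide, 3 were past the limit higher and 0 lower, with a median of 0.22, and 0 were past it in either direction relative to genes of like length. Aox1 stood at 0.44 and xanthine dehydrogenase (Xdh) at 0.42, whereas urate oxidase (Uox), which shares the peroxisome with catalase and is the most abundant of the list, stood at -0.14. Of 12 genes of peroxisome biogenesis, 1 was past the limit higher and 0 lower, with a median of 0.12, and relative to genes of like length 0 were higher and 1 lower. Pex11a, the most abundant, stood at 0.18. The catalase ratio of 0.48 was therefore above the highest of the peroxisome genes, 0.37.

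HDL proteins, the carriers of PON1, held the largest differences of the 9 partner lists. Of 10 genes, 2 were past the limit higher (Lcat and Scarb1) and 2 lower (Saa1 and Saa2), with a median of 0.10. Relative to genes of like length 3 were higher, namely Apom (0.46), Apoa2 (0.42) and Lcat (0.39). The same 2 were lower, and Scarb1 was inside the limit at 0.23. Saa1 and Saa2, acute-phase proteins that ride on HDL, stood at -1.23 and -1.10, the only genes of the 9 partner lists past 2-fold. Lcat, which esterifies cholesterol on HDL, stood at 0.40 and the HDL receptor Scarb1 at 0.38. Apoa1, the main HDL protein, had a log2 ratio of 0.14, and Apoa2, the most abundant of the list per length, of -0.07. Among the 6 genes of copper and manganese supply, 1 was past the limit higher (Slc39a14) and 0 lower, with a median of 0.09. Relative to genes of like length 1 was higher (Atox1, 0.62) and 1 lower (Slc30a10, -0.33), and Slc39a14 stood at 0.12. The copper chaperone of SOD1, Ccs, stood at 0.15 and ceruloplasmin (Cp), the most abundant, at 0.02.

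**Figure D5:**
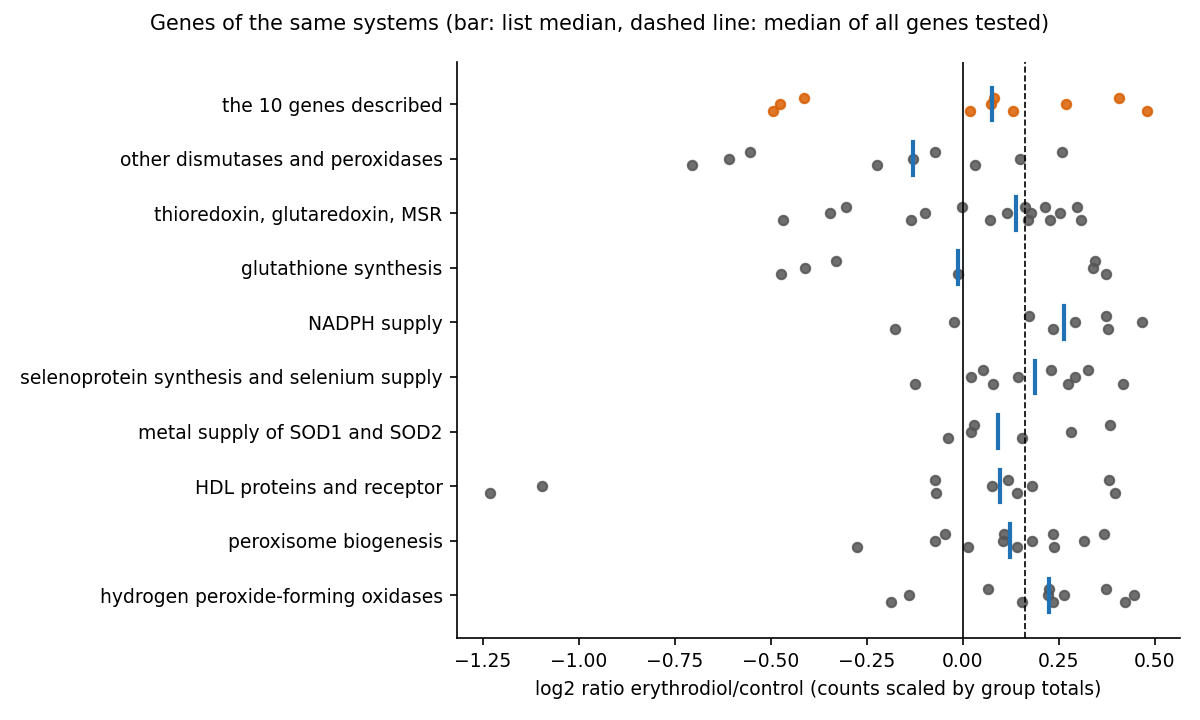
Pooled log2 ratio of each gene compared (points) in the 9 lists of partner genes and in the 10 genes described (orange), with the median of each list (blue bar), 0 (solid line) and the median of all genes compared (dashed line). The lists overlap widely around 0.16, and Saa1 and Saa2 lie far to the left at -1.23 and -1.10.

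Markers of other liver cells also differed in the same table. In bulk tissue, fewer cells of a type and less RNA per cell cannot be told apart. Of 8 Kupffer cell and macrophage markers, 6 were past the limit lower and 0 higher, with a median log2 ratio of -0.62 and a sum over all listed markers of 1004 and 661 counts per 1000000 (CPM); the most abundant, Cd5l, stood at -0.70. Of 6 red blood cell markers compared 4 were lower (Hbb-bs -0.72), and the 8 listed summed to 1265 and 929.6 CPM. Both neutrophil markers compared were lower (S100a9 -1.11), and the 8 listed summed to 10.5 and 4.92 CPM. Of 5 cholangiocyte markers compared 3 were lower (Spp1 -0.60), and the 6 listed summed to 117 and 79.3 CPM. Of 8 hepatocyte markers 3 were past the limit higher and 0 lower, with a median of 0.20, and 0 were past it relative to genes of like length, and Alb, at -0.06, marked the tissue as liver. Lymphocyte markers summed to 9.38 and 9.29 CPM (2 of 8 lower; Cd79a 0.03), endothelial markers to 235 and 249 (1 of 8 higher; Clec4g -0.26) and stellate cell markers to 548 and 525 (0 of 8 past the limit; Dcn -0.17). Relative to genes of like length, 7 macrophage, 3 red blood cell, 2 neutrophil and 5 cholangiocyte markers were past the limit lower. So were 3 lymphocyte and 2 stellate cell markers, while 1 lymphocyte marker was higher and 0 endothelial markers were past it. Of all genes compared, 24.4% were higher and 8.89% lower by the totals, and 6.2% and 13.3% relative to genes of like length. No marker was at 0 in either sum. The part of these markers in the values of the antioxidant genes was not tested. The reference genes of the study's qPCR, Ppib and Tbp, stood at -0.59 and 0.31. Major urinary protein genes took 12.5% of the control and 6.98% of the erythrodiol counts, and totals without the 50 most abundant genes lowered every log2 ratio by 0.10.

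Splicing files added little on these genes. The filtered comparison of splicing between the groups lists 16 events, and 0 of them lay in the 10 genes. Events that this filter left out are not covered. Of the 10 genes, 1 (Cat) had a newly assembled coding transcript. That transcript has 14 exons where the reference has 13, and 11 of them match it exactly. Its last exon, of 15 bases at chr2:103358893-103358907, lies 94997 bases beyond the end of Cat and inside the long noncoding gene A930006I01Rik. No group or count was given for it, so that it cannot be set beside the catalase ratio.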

How the data were processed

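Poly(A) RNA of 7 control and 7 erythrodiol liver pools was sequenced, and groups were taken from the titles of the samples. According to the submitters' processing notes and the study's methods, the authors aligned reads with HISAT, assembled transcripts with StringTie, compared them with the annotation by a tool of Cufflinks, called variants with GATK, and counted reads on transcripts with Bowtie2 and RSEM. The authors deposited gene values in the form of expected counts, 1 sum per group and not normalized, since the pairs mapped to genes over the libraries, 122887639 and 124690110, nearly equal the sums of the table. The deposited counts of clean reads per library ran from 34856340 to 55244294 in the control and from 47669656 to 48058606 in the erythrodiol group, and the deposited mapping rates are in percent. The table also holds a log2 ratio, a p-value and a q-value per gene from the authors' own comparison, which were not used.

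Ratios were computed from the unrounded sums divided by the group totals, for genes whose counts added up to 100 or more. Intervals are exact Clopper-Pearson intervals at 95%. Genes of like length lie within 10% of a gene's length, and of like count within 4-fold. Levels use the gene length of the table. Genes at least 25% higher or 20% lower were counted, and 2-fold was the further limit. With sums alone no count model could be fitted. The 10 genes and all lists were chosen with earlier results of these data known. Named genes are the 10, of each list the gene of highest level per length, the 5 highest and 5 lowest log2 ratios over the lists of partner genes, and Ppib and Tbp; other genes, with the roles given, were named after their values were seen. Alternatives were other scalings (the median of all genes, upper quartile, TMM of edgeR 4.0.16, totals without the 50 most abundant genes), a pseudocount of 1, length windows of 5% and 25%, and minima of 10 and 1000 counts. Gene positions and promoters are from RefSeq and exons from GENCODE, both on GRCm38. The script was tested on simulated data. The software was R 4.3.3 and Python 3.11.15 with scipy 1.17.1, pandas 2.3.3, matplotlib 3.10.9 and numpy 2.4.6.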

Additional observations from a re-analysis of the deposited data

Results flagged for a closer look

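Control replicate 3 stood apart from the other libraries of its group in mapping. Of its reads 64.33% mapped to genes, against 74.39% to 81.43% in the other 6 control libraries, and 76.66% mapped to the genome, against 91.98% to 94.64%. The gap to the nearest library was 0.588 and 0.852 of the whole range, above the critical value of 0.568 for 7 libraries. Over the 12 sets of libraries examined, chance alone would mark about 1 in 20. The library is part of the control sums of all 10 genes, and its part in their ratios was not tested.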

How the results depend on the processing

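The number of the 10 genes above 0 was 7 by the totals and moved to 3 with the median of all genes at 0, 4 without the 50 most abundant genes, 3 by the upper quartile and 3 by TMM. These scalings lowered every log2 ratio by the same amount, 0.16, 0.10, 0.16 and 0.16, so that the order of the genes cannot change. Genes at least 25% higher were 2 by the totals, 0 by the median, 1 without the 50 most abundant genes, 1 by TMM and 1 relative to genes of like length. Genes at least 20% lower were 3 in each of these settings, and 6 genes lay above their length class under every definition of it tried. Which genes were past the limit changed with that definition. With length and count both matched, Gpx4 (-0.15), Cat (0.19) and Pon2 (0.31) were inside it and Sod1 (0.43) was past it higher. Sod1 was also past it with the 5% window (0.35) and with at least 1000 counts (0.33), where Cat was inside (0.31). Pon2 was past it with the 25% window (0.325). Partner genes at least 25% higher were 15 by the totals, 0 by the median and 5 relative to genes of like length, and those lower were 10, 15 and 11. Over all definitions of like length, the difference ranged from 0.19 to 0.33 for Cat, from -0.40 to -0.15 for Gpx4 and from 0.25 to 0.43 for Sod1. No paired analysis was possible because the gene counts are sums over the libraries of a group and carry no replicate. No library could be left out for the same reason. Depth limits Pon2 most, and no value here measures the spread between animals.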
